A study of Mus musculus with 58 samples.

Results

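The effect of losing 1 functional copy of Abca1 on the injured APOE4 brain was read from 15 of the 58 mice of the series. The 15 were all the mice labelled as TBI with the APOE4 genotype: 8 E4/Abca1+/- TBI mice and 7 E4/Abca1+/+ TBI mice. Both groups carried human APOE4 in place of the mouse Apoe gene on the C57BL/6 background, were operated on at 3 months of age, and received a controlled cortical impact, in which a metal tip strikes the exposed left cortex once. Cortex and hippocampus at the injury site were pooled within each mouse 14 days later for RNA-seq. The E4/Abca1+/- group held 4 males and 4 females, and the E4/Abca1+/+ group held 4 males and 3 females. The other 43 mice were sham-operated mice, which had the craniotomy without the impact, and APOE3 mice with or without injury, and they enter only where the difference is set beside that of another group. Because the human APOE transcript is not in the mouse gene table, the counts at mouse Apoe do not measure it. The missing Abca1 copy was inherited and not limited to a cell type, so the mice do not separate an action of Abca1 in neurons from one in glia or vessels. In homogenised tissue a lower level of a transcript can mean fewer cells of a type or less RNA per cell, and these cannot be told apart.

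ABCA1 is a membrane transporter that moves cholesterol and phospholipid onto APOE, the main lipoprotein of the brain, and its gene is switched on by the liver X receptors when sterols build up in a cell. After an impact, microglia and astrocytes clear lipid-rich debris, and microglia around damage take up a state marked by Trem2, Itgax, lysosomal enzymes and complement. APOE4 is known to carry less lipid than APOE3, which is the ground for asking what a further fall in ABCA1 does in the injured APOE4 brain.

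The libraries differed in depth along with genotype. Total counts ran from 5471936 to 37877346 in the E4/Abca1+/- TBI mice and from 5192820 to 14939612 in the E4/Abca1+/+ TBI mice, and the medians differed 2.21 times. Of the 8 E4/Abca1+/- libraries, 4 were deeper than the deepest E4/Abca1+/+ library, and the mean totals of 18614295 and 9080501 differed by a two-sided exact permutation test (p = 0.0277). Abca1 copy number and depth therefore cannot be told apart by design. Counts drawn at random so that every library had the lowest total are given for the number of calls, mitochondrially encoded genes and transcript length. Other results are given at full depth. Levels are given as CPM, a gene's counts relative to the total of its library, after TMM scaling, a library-size correction that assumes most genes are unchanged. A count of 3, taken as the floor, was worth 0.0792 to 0.578 CPM depending on the library. E4/Abca1+/- replicate 8 stood apart in tissue content: its mean log2(CPM + 1) over hippocampal neuron markers was 3.26 against 4.76 to 5.19 in the other 7 E4/Abca1+/- mice, and over thalamic, striatal and other subcortical markers it was 4.59 against 3.27 to 3.59.

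Abca1 itself did not separate the injured APOE4 groups. Its level was 81.0, 130.1 and 214.5 CPM (lowest, median and highest) in the E4/Abca1+/- TBI mice and 98.7, 121.1 and 295.6 CPM in the E4/Abca1+/+ TBI mice. The means of 137.9 ± 44.5 (SD, n = 8) and 156.0 ± 74.6 CPM (SD, n = 7) were not shown to differ by a two-sided exact permutation test (p = 0.583), so Abca1 counts do not check the genotype labels of these 15 mice. The ranges overlapped almost fully, with 1 E4/Abca1+/- mouse below the lowest E4/Abca1+/+ mouse. Two-sided edgeR testing over all genes gave a log2 fold change of -0.19 (SE 0.24, adjusted p = 0.718). With log2 total counts as a covariate it was -0.0 (SE 0.29, edgeR adjusted p = 0.997). The spread among the 7 E4/Abca1+/+ mice came from replicates 6 and 7, both female, at 295.6 and 218.5 CPM, while the other 5 lay between 98.7 and 150.8 CPM. Without replicate 6 the log2 fold change was 0.03, in males alone it was 0.22, and in females alone -0.60, so that the direction rested on which mice were counted.

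Mean Abca1 was lower with 1 copy in the sham APOE4 mice and in the injured APOE3 mice. In sham APOE4 mice Abca1 was 28.9, 35.2 and 42.4 CPM with 1 copy and 33.3, 48.9 and 51.7 CPM with both, a log2 fold change of -0.35 (SE 0.09, edgeR adjusted p = 0.08). The difference in sham means, 35.8 ± 4.86 against 45.6 ± 6.42 CPM (SD, n = 7 each), gave an exact permutation p = 0.0117. In injured APOE3 mice Abca1 was 76.1, 104.3 and 136.0 CPM in Abca1+/- mice and 123.2, 147.1 and 282.7 CPM in Abca1+/+ mice. That was a log2 fold change of -0.71 (SE 0.17, edgeR adjusted p = 0.117, exact permutation p = 0.002). The difference between the APOE4 and APOE3 contrasts after injury, 0.52 on the log2 scale (SE 0.32), did not pass the test (edgeR adjusted p = 0.601).

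**Figure D1:**
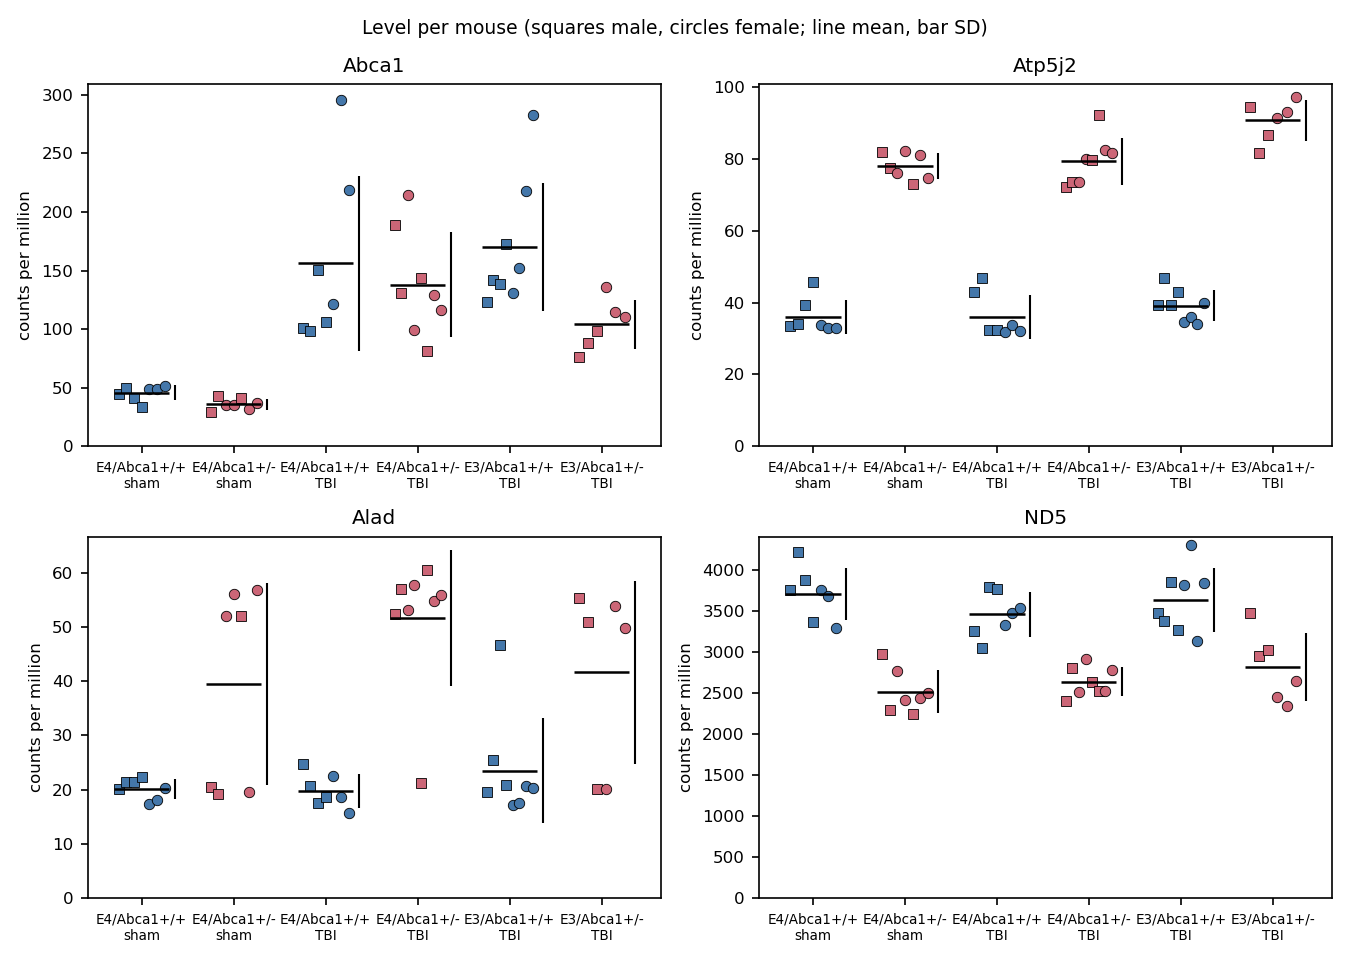
Level of Abca1, Atp5j2, Alad and ND5 in each mouse of the APOE4 groups and the injured APOE3 groups, in CPM on axes that start at 0; squares are males, circles females, lines means and bars SD. Abca1 overlaps between the injured APOE4 genotypes, Atp5j2 separates the genotypes in all groups drawn, Alad falls into a low and a high set of mice, and ND5 is lower in the E4/Abca1+/- than in the E4/Abca1+/+ mice.

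Abca1 varied with the extent of the injury response among the E4/Abca1+/- TBI mice. An injury score was taken per mouse as the mean log2(CPM + 1) of 515 genes raised by injury in APOE3 mice, Abca1 left out. Over the 8 E4/Abca1+/- TBI mice Abca1 rose with the score, with Pearson's r = 0.879 (exact permutation p = 0.00511, adjusted 0.0102) and Spearman's rho = 0.81 (exact permutation p = 0.0218, adjusted 0.0436), adjusted over the 2 groups. Leaving out the 2 mice farthest from the median score left r = 0.82 over 6 mice. In the E4/Abca1+/+ TBI mice r was 0.916 over 7 mice (exact permutation p = 0.0286, adjusted 0.0286) but rho was 0.464 (exact permutation p = 0.302, adjusted 0.302), and without the 2 farthest mice r was -0.129, so the relation there rests on replicates 6 and 7. With this score, itself an outcome of the same mice, as a covariate, a choice made after the data were seen, Abca1 was lower in E4/Abca1+/- mice by -0.69 on the log2 scale (SE 0.12, edgeR adjusted p = 0.0364).

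Genes that act with ABCA1 in sterol transport moved little. Of 25 cholesterol efflux and liver X receptor target genes tested, 15 had a positive and 10 a negative log2 fold change, with a median of 0.03. Abca2, an ABC transporter of neurons and oligodendrocytes implicated in cholesterol handling, was the one member to pass the test, and it was lower: 246.2, 264.4 and 307.3 CPM in E4/Abca1+/- mice against 300.9, 307.0 and 331.7 CPM in E4/Abca1+/+ mice. Its log2 fold change was -0.24 (SE 0.05, adjusted p = 0.0319), and 7 of 8 E4/Abca1+/- mice lay below the lowest E4/Abca1+/+ mouse. It stayed called in 6 of the 15 fits that left out 1 mouse (adjusted p up to 0.0918). Abca7, a related lipid transporter of microglia and neurons, had -0.30 (SE 0.10, adjusted p = 0.125). Npc2, which carries cholesterol out of the lysosome, had 0.44 (SE 0.15, adjusted p = 0.136), and Apoc1, an apolipoprotein of lipid-laden macrophages, had 1.00 (SE 0.36, adjusted p = 0.148). Among 26 sterol synthesis genes the median was -0.03, and Srebf2, the transcription factor that drives that pathway, fell from a median of 212.2 to 180.7 CPM (log2 fold change -0.24, SE 0.05, adjusted p = 0.0398), a call that held in 2 of the 15 fits without 1 mouse (adjusted p up to 0.097). Counts at mouse Apoe differed by 0.18 (SE 0.08, adjusted p = 0.225).

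Over all 14854 genes tested, 83 were higher in E4/Abca1+/- TBI mice (0.559%) and 135 were lower (0.909%) at an edgeR adjusted p under 0.05. At an unadjusted p under 0.05 the counts were 1277 (8.6%) and 1456 (9.8%). Positive log2 fold changes made up 50.6% of all genes, and 86 genes (0.579%) had no overlap between the CPM values of the groups. The higher genes had a median log2 fold change of 0.34 and the lower ones of -0.28, with 7 higher genes and 1 lower gene beyond 1 on the log2 scale. DESeq2's Wald test, another count test, called 265 higher (1.78%) and 464 lower genes (3.12%). On simulated data for 8 against 7 mice that test made 29 false calls among 194, and edgeR made 9 among 168. Each gene was simulated on its own there, so these rates do not carry over to genes that move together by mouse. Single mice decided how many genes passed. Without E4/Abca1+/+ replicate 6 the test called 413 higher (2.76%) and 392 lower genes, and without E4/Abca1+/+ replicate 3 it called 21 and 19. Thinning every library to the lowest total left 41 higher and 59 lower.

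The smallest p belonged to Atp5j2, which encodes a subunit of the mitochondrial ATP synthase. It was 72.1, 79.8 and 92.1 CPM in E4/Abca1+/- TBI mice and 31.8, 32.3 and 46.8 CPM in E4/Abca1+/+ TBI mice, with no overlap (log2 fold change 1.13, SE 0.09, adjusted p = 6.66e-06). The step was of like size in the sham APOE4 mice, 1.13, and in the injured APOE3 mice, 1.21. Across the whole series the 28 Abca1+/- mice ranged from 72.1 to 97.4 CPM and the 30 Abca1+/+ mice from 31.8 to 48.1 CPM. Atp5j2 thus tracked the genotype label in every mouse, with or without injury and with either APOE isoform. Abca1 did not: it ran from 28.9 to 214.5 CPM in Abca1+/- and from 33.3 to 295.6 CPM in Abca1+/+ mice. These Abca1 ranges pool sham with injured mice, in which Abca1 was higher, and the pooling widens their overlap. Within the injured APOE3 mice the overlap was smaller, at 76.1 to 136.0 against 123.2 to 282.7 CPM.

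A trio of neighbouring genes on chromosome 4, where Abca1 lies, made up the next block. Abca1 spans chr4:53030789-53159988 (GRCm38.p6), and Bspry, Hdhd3 and Alad lie side by side at chr4:62480011-62497300, chr4:62499054-62502200 and chr4:62505984-62520063, 9.45, 9.47 and 9.48 Mb from it. Alad, an enzyme of haem synthesis, was 21.2, 55.3 and 60.5 CPM in E4/Abca1+/- TBI mice and 15.7, 18.7 and 24.7 CPM in E4/Abca1+/+ TBI mice (log2 fold change 1.38, SE 0.18, adjusted p = 0.00323). Of the E4/Abca1+/- mice 7 lay above every E4/Abca1+/+ mouse, and replicate 5, at 21.2 CPM, lay within the E4/Abca1+/+ range. Hdhd3, a predicted phosphatase named here because it lies between the other members of the trio, gave 4.46, 13.5 and 16.1 against 3.05, 5.22 and 6.72 CPM (log2 fold change 1.39, SE 0.24, adjusted p = 0.0102). Bspry, at a low level, gave 0.698, 2.39 and 3.43 against 0.286, 0.531 and 0.754 CPM (log2 fold change 2.12, SE 0.32, adjusted p = 0.01).

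The trio took discrete levels over the series. Alad was between 15.7 and 25.5 CPM in 36 mice and between 46.7 and 88.3 CPM in 22, with no mouse in between, and Hdhd3 split the same mice. High-Alad mice made up 7 of 8 E4/Abca1+/- TBI and 4 of 7 E4/Abca1+/- sham mice, and 0 of 7 in each E4/Abca1+/+ group. They were also found among APOE3 mice of both genotypes: 4 of 6 E3/Abca1+/- TBI, 3 of 7 E3/Abca1+/- sham, 1 of 8 E3/Abca1+/+ TBI and 3 of 8 E3/Abca1+/+ sham mice. The level thus did not follow the Abca1 label in every mouse, and it split APOE3 mice of both genotypes. Alad differed by 0.86 in injured APOE3 mice (edgeR adjusted p = 0.25) and by 0.97 in sham APOE4 mice (adjusted p = 0.0796). The 4 genes next to Abca1 did not pass the test: AI427809 had a log2 fold change of 0.34 (adjusted p = 0.756), Nipsnap3b 0.29 (adjusted p = 0.0968), Slc44a1 0.18 (adjusted p = 0.164) and Smc2 0.13 (adjusted p = 0.481). Over all genes 218 of 14854 (1.47%) were called in either direction. Within 5 Mb of Abca1, 1 of 34 genes tested was called, and it was lower. Within 10 Mb 6 of 117 were called (5.13%), 4 of them higher, and on all of chromosome 4 13 of 911 (1.43%), 8 of them higher.

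**Figure D2:**
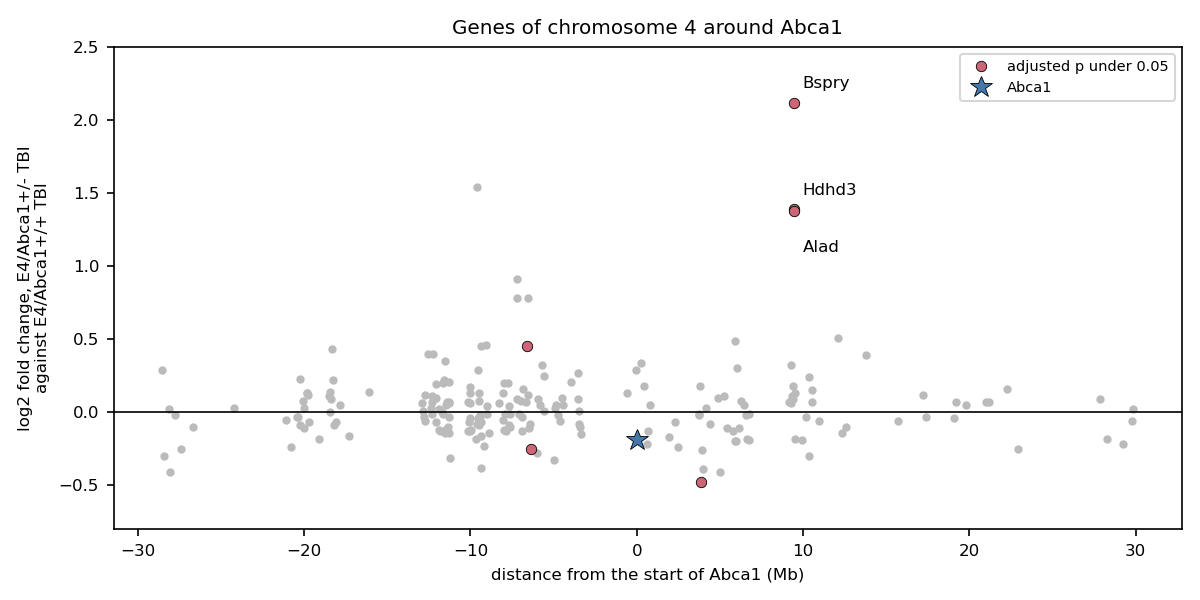
Log2 fold change of genes on chromosome 4 in E4/Abca1+/- TBI against E4/Abca1+/+ TBI mice, by distance in Mb from the start of Abca1; red points passed an adjusted p of 0.05 and the star is Abca1. Bspry, Hdhd3 and Alad stand at 2.12, 1.39 and 1.38 near 9.5 Mb, with Abca1 at -0.19.

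Mitochondrially encoded genes were lower in the E4/Abca1+/- TBI mice. All 13 protein-coding transcripts of the mitochondrial genome had negative log2 fold changes, with a median of -0.37 against 0.00 for all genes. Of the 13, edgeR called 6 lower, against 0.909% of all genes. ND5, a subunit of respiratory complex I, was 2403.0, 2581 and 2912 CPM in E4/Abca1+/- mice and 3041, 3473 and 3784 CPM in E4/Abca1+/+ mice, without overlap (log2 fold change -0.41, SE 0.06, adjusted p = 0.00522). The other complex I genes ND2 (-0.37, adjusted p = 0.01), ND4 (-0.34, adjusted p = 0.01) and ND6 (-0.39, adjusted p = 0.0121) gave like values. The list median was -0.37 in males, -0.29 in females and -0.38 after thinning to equal depth. The same contrast gave -0.55 in sham APOE4 mice, where 11 of 13 were called lower against 0.617% of all genes, and -0.30 in injured APOE3 mice, where edgeR called none, against 0.18% of all genes in either direction, and 9 had an unadjusted p under 0.05. Mitochondrial genes took 2.76 to 3.38% of the counts in E4/Abca1+/- TBI libraries and 3.17 to 3.93% in E4/Abca1+/+ TBI libraries.

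Ribosomal protein genes went the other way. Of 58 cytosolic ribosomal protein genes 43 had positive log2 fold changes, against 50.6% of all genes, 11 were called higher, against 0.559% of all genes, and the median was 0.18. Rpl7, a large-subunit protein, was 93.0, 97.6 and 106.6 CPM in E4/Abca1+/- TBI mice and 76.2, 82.1 and 85.4 CPM in E4/Abca1+/+ TBI mice (log2 fold change 0.26, SE 0.04, adjusted p = 0.01). Rps3 (0.28) and Rpl29 (0.49) also rose with no overlap between groups, and Rps24 rose by 0.27. Because ribosomal protein genes have near-identical processed copies, their counts and those of Gm14586 (0.45), Gm9800 (0.71), Gm16089 (0.65) and Rps15a-ps5 (0.53), all among the 10 genes with the smallest p of those higher, may be shared between loci and are uncertain. The list median was 0.05 in injured APOE3 mice and 0.06 in sham APOE4 mice. Among 61 nuclear-encoded respiratory chain genes the median was 0.09, and Atp5e, another ATP synthase subunit, was called higher beside Atp5j2 (0.24, SE 0.06, adjusted p = 0.0412). With 1 mouse left out Atp5e stayed called in 4 of 15 fits and Atp5j2 in all 15. Bc1, a short non-coding RNA carried into dendrites, had one of the largest steps: 178.0, 330.2 and 405.9 CPM against 34.7, 90.4 and 174.4 CPM (log2 fold change 1.66, SE 0.27, adjusted p = 0.01).

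The direction of change went with transcript length. The 83 higher genes had a median longest transcript of 1460 bases and the 135 lower genes one of 6388, against 3431 over all genes. In the 706 genes with transcripts up to 1 kb the median log2 fold change was 0.14, with 32 called higher and 3 lower. The median fell bin by bin to -0.15 in the 889 genes over 8 kb, where edgeR called 48 lower and 0 higher. Among all genes 0.559% were called higher and 0.909% lower. Thinned to equal depth, the same bins ran from 0.152 to -0.141. The APOE4 sham contrast ran from 0.078 to -0.064 and that of injured APOE3 mice from 0.074 to -0.023. The part of transcript length in any single result was not tested.

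**Figure D3:**
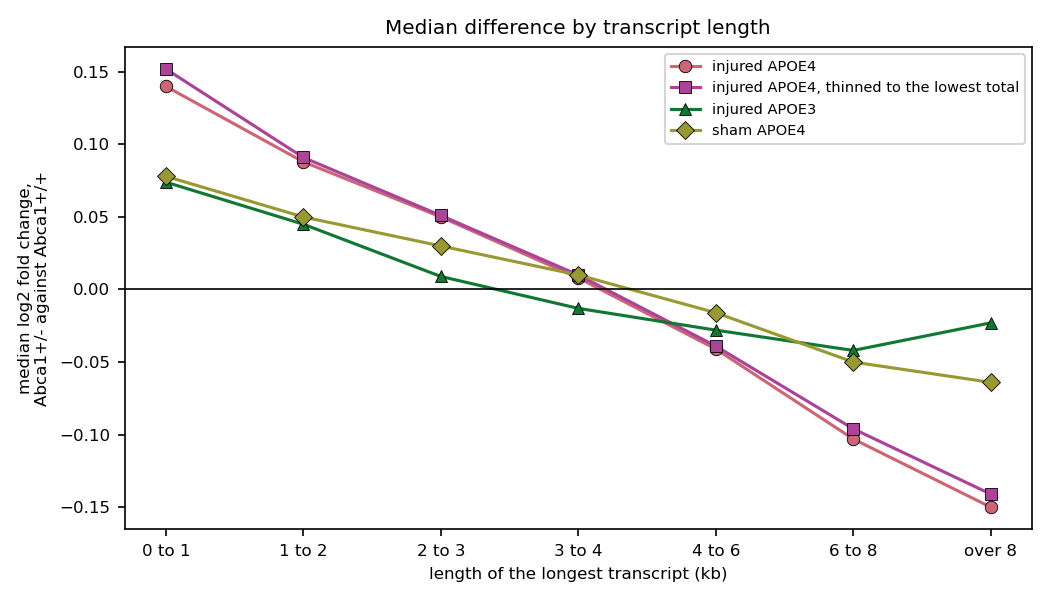
Median log2 fold change of Abca1+/- against Abca1+/+ mice by length of the longest transcript in kb, for injured APOE4 mice, the same mice thinned to the lowest total, injured APOE3 mice and sham APOE4 mice; 1 point per bin. The injured APOE4 line falls from 0.14 to -0.15 and is nearly covered by the thinned line.

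Among the genes with the smallest p of those lower, the 6 named next have longest transcripts of 4693 to 15455 bases. Crebbp, a histone acetyltransferase, was 30.7, 38.8 and 45.7 CPM in E4/Abca1+/- TBI mice and 45.5, 56.4 and 64.7 CPM in E4/Abca1+/+ TBI mice (log2 fold change -0.59, SE 0.08, adjusted p = 0.00667), with 7 of 8 below the lowest E4/Abca1+/+ mouse. Shank2, a postsynaptic scaffold, was 131.6, 138.0 and 159.9 against 156.5, 186.4 and 214.5 CPM (log2 fold change -0.38, SE 0.07, adjusted p = 0.0113). Slc4a8, a neuronal bicarbonate transporter, had -0.34, Peg3, an imprinted zinc finger gene, had -0.33, and Cmip had -0.25, each with an adjusted p of 0.01. Plec, a large linker of the cytoskeleton, had -0.43 (adjusted p = 0.011).

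Most called genes had the same sign in mice that were not injured. Of the 83 higher genes, 79 of 80 tested (98.8%) also had a positive log2 fold change in the sham APOE4 mice, 47 at an unadjusted p under 0.05. Of the 135 lower genes, 130 (96.3%) had a negative one there, 65 at that p. Over all genes 68.2% had the same sign in injured and sham APOE4 mice. In injured APOE3 mice 68 of 82 (82.9%) and 92 of 135 (68.1%) had the same sign, against 55.4% of all genes. No mouse was in more than 1 of these contrasts, but the E4/Abca1+/- libraries were also the deeper ones in the sham mice, at 18311106 to 28467098 counts against 4695676 to 14064531, and in the injured APOE3 mice the Abca1+/- libraries held 12165681 to 21199410 counts against 4719044 to 17148953. The sham APOE4 medians of the higher and lower sets were 0.17 and -0.13; since the sets were chosen in the injured mice, their medians there are not comparable with these.

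Genes of microglia and of antigen presentation had higher levels in most E4/Abca1+/- TBI mice, but few passed the test. Of 15 microglial markers all had positive log2 fold changes, with a median of 0.32. Aif1, which encodes IBA1, the marker used to count microglia, rose from 5.84, 8.99 and 16.8 CPM in E4/Abca1+/+ TBI mice to 12.5, 16.5 and 21.8 CPM in E4/Abca1+/- TBI mice (log2 fold change 0.77, SE 0.17, adjusted p = 0.0389). The groups overlapped, with 4 of 8 E4/Abca1+/- mice above the highest E4/Abca1+/+ mouse, replicate 6. Ctss, a lysosomal protease of microglia, was 234.5, 395.7 and 510.4 against 163.2, 205.2 and 399.7 CPM (0.71, SE 0.19, adjusted p = 0.071), and Trem2, the lipid-sensing receptor of microglia, had 0.69 (SE 0.22, adjusted p = 0.114).

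Damage-associated microglial genes showed the same split. Of 26 genes 25 had positive log2 fold changes, with a median of 0.68, and 19 had an unadjusted p under 0.05. At an adjusted p under 0.05, however, edgeR called none and DESeq2 called 3. Among all genes 8.6% were higher at that unadjusted p, and DESeq2 called 1.78% higher. Itgax, an integrin of lipid-handling microglia, was 6.80, 15 and 24.5 CPM in E4/Abca1+/- and 3.36, 5.92 and 14.1 CPM in E4/Abca1+/+ mice (log2 fold change 1.05, SE 0.29, adjusted p = 0.0745). The lysosomal protease gene Ctsz had 0.70 (SE 0.22, adjusted p = 0.107), and the late endosome gene Cd63 0.58 (SE 0.18, adjusted p = 0.106). Per mouse, the mean log2(CPM + 1) of the list lay between 5.46 and 6.52 in the E4/Abca1+/- mice. In the E4/Abca1+/+ mice it lay between 4.77 and 5.17 in replicates 1 to 5, at 6.35 in replicate 6 and at 5.85 in replicate 7.

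The step in these genes was seen in males and not shown in females. In males every E4/Abca1+/- library (16177983 to 37877346 counts) was deeper than every E4/Abca1+/+ library (6705349 to 14939612 counts). In females the totals overlapped, at 5471936 to 14054624 against 5192820 to 10416910 counts. Genotype and depth therefore cannot be told apart in the males, and a difference between the sexes cannot be told apart from depth. In males the mean level of the damage-associated list was 5.47 to 6.25 in the 4 E4/Abca1+/- mice and 4.77 to 5.17 in the 4 E4/Abca1+/+ mice, and 15 of 26 members were called higher against 2.34% of all genes. In females the ranges were 5.46 to 6.52 and 4.92 to 6.35, and edgeR called 0 of 26 higher against 0.0135% of all genes, with 2 of 26 higher at an unadjusted p under 0.05. The difference between the sexes itself did not pass the test for any gene (0 of 14854 by edgeR, 1315 at an unadjusted p under 0.05, smallest adjusted p = 0.33), a test added after the data were seen. Without E4/Abca1+/+ replicate 6 the median of the list was 0.95 and 13 members were called, against 2.76% of all genes called higher. Without E4/Abca1+/- replicate 3 the median was 0.55. The same list had a median of -0.02 in injured APOE3 mice and of 0.18 in sham APOE4 mice. In the sham mice edgeR called 0 of the 20 members tested, 8 were higher at an unadjusted p under 0.05, and 0.373% of all genes were called higher.

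Receptors, complement and lysosomal genes followed. For comparison, 8.6% of all genes were higher at an unadjusted p under 0.05, and DESeq2 called 1.78% of all genes higher. All 28 Fc, Toll-like and adhesion receptor genes of microglia had positive log2 fold changes, with a median of 0.60 and 15 at an unadjusted p under 0.05; edgeR called 0 and DESeq2 3. Fcgr3, a low-affinity antibody receptor, had 0.61 (SE 0.17, adjusted p = 0.0715), Ly86, which binds the Toll-like receptor relative CD180, had 0.66 (SE 0.20, adjusted p = 0.0913), and Cd180 itself 0.78 (SE 0.25, adjusted p = 0.109). Of 19 complement genes 16 were positive, with a median of 0.44 and 6 at an unadjusted p under 0.05; edgeR called 0 and DESeq2 1. The median was 0.29 without E4/Abca1+/- replicate 3. C1qa, which starts the classical pathway, was 181.8, 286.9 and 344.6 CPM in E4/Abca1+/- and 96.0, 153.5 and 332.8 CPM in E4/Abca1+/+ mice (0.72, SE 0.21, adjusted p = 0.0911). The other C1q chains C1qb and C1qc had 0.67 and 0.61. For the 31 lysosomal genes the median was 0.35, with 28 positive and 18 at an unadjusted p under 0.05; edgeR called 0 and DESeq2 3.

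Phagocyte oxidase and inflammasome genes had a median of 0.48 over 15 genes, 14 of them positive. Aim2, a sensor of cytosolic DNA that assembles an inflammasome, was called higher: 4.07, 4.75 and 5.98 CPM in E4/Abca1+/- mice against 1.41, 2.71 and 4.77 CPM in E4/Abca1+/+ mice (log2 fold change 0.77, SE 0.19, adjusted p = 0.0482). Pycard, the adaptor of inflammasomes, had 0.79 (SE 0.23, adjusted p = 0.0843), and Rac2, a GTPase of the oxidase, 0.82 (SE 0.23, adjusted p = 0.0837). In 20 cytokine and chemokine genes the median was 0.32, and neither edgeR nor DESeq2 called any. At an unadjusted p under 0.05, 7 were higher and 1 lower, against 8.6% and 9.8% of all genes. Without E4/Abca1+/+ replicate 6 the cytokine and chemokine median was 0.55. Markers of blood-derived and border macrophages had a median of 0.00 over 11 genes, with 5 positive and 6 negative, and -0.15 to 0.24 with 1 mouse left out. The summed level of the 12 markers with counts was 144.8, 333.3 and 801.1 CPM (lowest, median and highest) in E4/Abca1+/- mice. In E4/Abca1+/+ mice it was 145.0, 177.5 and 720.6 CPM. The Aif1, Aim2 and Psme1 calls were each lost when some single mice were left out: Aif1 stayed called in 4 of 15 such fits, Psme1 in 5 and Aim2 in 2.

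MHC class I presentation genes had a positive median log2 fold change in each sex, though their mean level per mouse overlapped between genotypes in both. They display peptides from inside the cell: H2-K1 and H2-D1 encode the peptide-holding heavy chains, B2m the light chain they share, and Psme1 and Psme2 the proteasome activator that helps to make the peptides. The promoters of 4 of them are printed because class I genes are known targets of interferon and NF-kappaB; B2m, H2-K1 and H2-D1 lie outside the naming rule and were chosen after their values were seen. Each run is 250 bases before to 50 after the RefSeq start site in GRCm38.p6, 5′ to 3′ on the gene's own strand, and capitals mark an ISRE-like match (GAAANNGAAA or, on the other strand, TTTCNNTTTC) in B2m and Psme1 and a kappaB-like match (GGGATTCCC, or GGGAATCCC on the other strand) in H2-K1 and H2-D1. They lie at chr2:122147437-122147736 on the plus strand, chr14:55578244-55578543 on the plus strand, chr17:34000298-34000597 on the minus strand and chr17:35262844-35263143 on the plus strand, in the order given.
B2m: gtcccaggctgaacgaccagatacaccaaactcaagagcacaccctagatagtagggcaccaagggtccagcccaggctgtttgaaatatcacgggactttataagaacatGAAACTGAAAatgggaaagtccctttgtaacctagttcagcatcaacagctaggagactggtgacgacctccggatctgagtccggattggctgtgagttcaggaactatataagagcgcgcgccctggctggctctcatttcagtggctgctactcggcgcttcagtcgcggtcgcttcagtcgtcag
Psme1: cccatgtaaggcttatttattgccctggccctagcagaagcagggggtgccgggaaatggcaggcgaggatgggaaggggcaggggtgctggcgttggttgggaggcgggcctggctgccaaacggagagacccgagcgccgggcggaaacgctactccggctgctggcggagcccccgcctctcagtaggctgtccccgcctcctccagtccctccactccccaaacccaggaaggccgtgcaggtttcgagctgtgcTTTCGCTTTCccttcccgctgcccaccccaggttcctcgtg
H2-K1: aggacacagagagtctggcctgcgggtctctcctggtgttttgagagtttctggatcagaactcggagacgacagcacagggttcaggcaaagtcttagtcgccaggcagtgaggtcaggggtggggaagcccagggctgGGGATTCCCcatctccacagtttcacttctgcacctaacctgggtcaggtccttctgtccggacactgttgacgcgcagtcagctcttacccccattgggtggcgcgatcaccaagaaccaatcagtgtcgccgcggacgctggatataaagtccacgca
H2-D1: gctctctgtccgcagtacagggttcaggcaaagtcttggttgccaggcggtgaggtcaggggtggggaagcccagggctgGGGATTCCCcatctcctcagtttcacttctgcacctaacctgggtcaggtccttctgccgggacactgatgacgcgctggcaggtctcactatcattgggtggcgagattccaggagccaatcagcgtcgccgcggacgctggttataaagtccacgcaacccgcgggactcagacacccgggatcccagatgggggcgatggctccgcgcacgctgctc

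RefSeq promoters were found for 16 of the 18 list members. Only exact letters were searched, so a promoter without a match may hold another form of the element. The ISRE-like letters were in 4 of these 16 promoters (25%), those of B2m, Erap1, H2-T23 and Psme1, against 3.49% of all 27025 mouse promoters of the same length. The kappaB-like letters were in 4 of 16 (25%), those of H2-D1, H2-K1, H2-Q6 and H2-Q7, against 0.37%. The CCAAT box (CCAAT or ATTGG) was in 11 of 16 (68.8%) against 37.9%. None of the 16 held both the ISRE-like and the kappaB-like letters. The CCAAT box was also in all 4 kappaB-like promoters and in those of B2m and H2-T23. H2 class I promoters are near copies of one another, and a match says only that these letters are present.

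All 18 MHC class I presentation genes had positive log2 fold changes, with a median of 0.59, and 14 had an unadjusted p under 0.05. EdgeR called 1 and DESeq2 6. Among all genes 8.6% were higher at that unadjusted p, and edgeR called 0.559% and DESeq2 1.78% higher. Psme1 was called: 39.3, 42.4 and 50.8 CPM in E4/Abca1+/- TBI mice against 25.4, 32.7 and 41.6 CPM in E4/Abca1+/+ TBI mice (log2 fold change 0.43, SE 0.10, adjusted p = 0.041), with 6 of 8 above the highest E4/Abca1+/+ mouse. Its partner Psme2 was 8.77 to 12.0 against 7.19 to 9.01 CPM, with 7 of 8 above the highest E4/Abca1+/+ mouse (0.33, SE 0.08, adjusted p = 0.0639). H2-K1 was 79.6, 127.9 and 186.5 against 44.6, 79.1 and 129.1 CPM (0.71, SE 0.21, adjusted p = 0.0968). H2-D1 was 69.6, 128.5 and 190.3 against 45.3, 82.6 and 116.7 CPM (0.73, SE 0.22, adjusted p = 0.0911). Classical class I genes are near-identical over much of their length, so reads may be shared between them. B2m was 175.4, 282.6 and 416.8 against 140.3, 198.9 and 294.1 CPM (0.54, SE 0.18, adjusted p = 0.126). The non-classical genes H2-T23 and H2-M3 had 0.58 (adjusted p = 0.0865) and 0.60 (adjusted p = 0.0805), each with 6 of 8 E4/Abca1+/- mice above the highest E4/Abca1+/+ mouse.

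The class I median was 0.61 in males and 0.43 in females, and 0.47 to 0.67 when any 1 mouse was left out. It was -0.07 in injured APOE3 mice and 0.09 in sham APOE4 mice. In males the mean log2(CPM + 1) of the class I list was 4.05 to 4.74 in E4/Abca1+/- TBI and 3.39 to 4.17 in E4/Abca1+/+ TBI mice. In females the ranges were 3.8 to 4.56 and 3.45 to 4.25. Genotype and depth cannot be told apart in the males. Class II genes, which display engulfed antigen, had a median of 0.71 over 11 genes, 1.17 in males and 0.04 in females, and 0.45 without E4/Abca1+/- replicate 6. H2-Ab1, a class II chain, was 5.19, 12.8 and 41.1 CPM in E4/Abca1+/- and 4.0, 6.25 and 12.4 CPM in E4/Abca1+/+ mice (1.03, SE 0.40, adjusted p = 0.18), with replicate 6 of the E4/Abca1+/- mice alone at 41.1 and the next at 19.6, and without that mouse the log2 fold change was 0.62. Interferon-stimulated genes had a median of 0.36 over 25 genes. Bst2, a tether of viral particles, had 0.71 (SE 0.26, adjusted p = 0.161), Irf1, an interferon regulatory factor, 0.36 (SE 0.13, adjusted p = 0.153), and Psmb8, a subunit of the immunoproteasome, 0.72 (SE 0.22, adjusted p = 0.103).

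**Figure D4:**
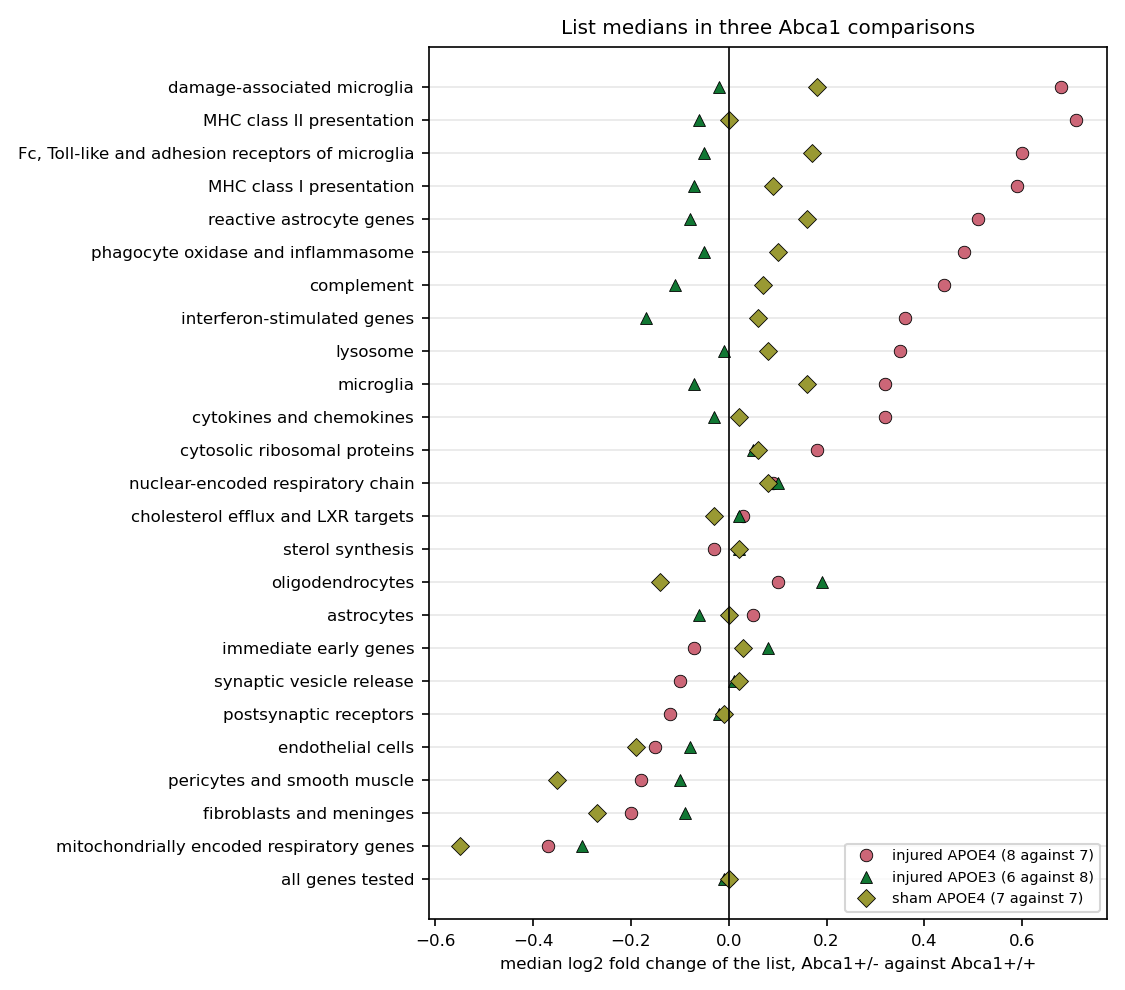
Median log2 fold change of gene lists in Abca1+/- against Abca1+/+ mice, as circles for injured APOE4, triangles for injured APOE3 and diamonds for sham APOE4 mice. The 11 lists of microglial, phagocyte, presentation, complement, lysosomal, cytokine, interferon and reactive astrocyte genes at the top lie at 0.32 to 0.71 in injured APOE4 mice and at or under 0.18 in the other contrasts, while mitochondrially encoded genes are negative in all 3.

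Reactive astrocyte genes had a median of 0.51 over 24 genes, 23 of them positive, with 8 at an unadjusted p under 0.05. EdgeR called 0 and DESeq2 1. Among all genes 8.6% were higher at that unadjusted p, and DESeq2 called 1.78% higher. Gfap, the intermediate filament of reactive astrocytes, was 1286, 1980.1 and 2886 CPM in E4/Abca1+/- and 738.9, 1190.8 and 2231 CPM in E4/Abca1+/+ mice (0.57, SE 0.21, adjusted p = 0.157). Vim, another intermediate filament, was 161.9, 261.2 and 425.0 against 102.1, 112.9 and 348.6 CPM (0.71, SE 0.27, adjusted p = 0.174). The list median was 0.30 without E4/Abca1+/- replicate 3 and 0.72 without E4/Abca1+/+ replicate 6. It was 0.93 in males, with 9 called by edgeR against 2.34% of all genes called higher, and 0.08 in females. Every male E4/Abca1+/- library was deeper than every male E4/Abca1+/+ library, so genotype and depth cannot be told apart there. General astrocyte markers had a median of 0.05, and Slc1a2, the main glutamate transporter of astrocytes, had -0.26 (SE 0.08, adjusted p = 0.0968).

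Vascular markers leaned the other way. Of 10 endothelial markers 8 were negative, with a median of -0.15, 3 at an unadjusted p under 0.05. EdgeR called 0 and DESeq2 1. Among all genes 9.8% were lower at that unadjusted p, and DESeq2 called 3.12% lower. Flt1, a VEGF receptor, was 25.6, 39.5 and 45.7 CPM in E4/Abca1+/- and 42.3, 47.6 and 55.5 CPM in E4/Abca1+/+ mice (-0.38, SE 0.11, adjusted p = 0.0865), with 6 of 8 below the lowest E4/Abca1+/+ mouse. Cdh5, the endothelial cadherin, had -0.47 (SE 0.17, adjusted p = 0.141), and Rgs5, a pericyte marker, -0.34 (SE 0.12, adjusted p = 0.143). Pericyte and smooth muscle markers had a median of -0.18 and fibroblast and meningeal markers one of -0.20, which were -0.07 and -0.01 without E4/Abca1+/+ replicate 3. In sham APOE4 mice the endothelial and pericyte medians were -0.19 and -0.35. Scar matrix genes had a median of -0.06 over 29 genes, and Col4a1, a basement membrane collagen, had -0.26 (SE 0.11, adjusted p = 0.222). Choroid plexus markers were scattered by sample: Ttr, the carrier of thyroid hormone made there, ran from 1.08 to 1928 CPM in E4/Abca1+/- and from 0.144 to 1597 CPM in E4/Abca1+/+ mice.

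Most synaptic genes had small negative log2 fold changes. Of 20 genes of synaptic vesicle release 19 were negative, with a median of -0.10, and 5 had an unadjusted p under 0.05. EdgeR called 0 and DESeq2 1. Among all genes 9.8% were lower at that unadjusted p, and edgeR called 0.909% and DESeq2 3.12% lower. Sv2a, a vesicle glycoprotein, had -0.22 (SE 0.08, adjusted p = 0.17). Of 20 postsynaptic genes 18 were negative, with a median of -0.12, and Shank1, a scaffold of excitatory synapses, was called. It was 270.3, 298.2 and 324.9 CPM in E4/Abca1+/- and 280.0, 412.4 and 470.9 CPM in E4/Abca1+/+ mice (-0.45, SE 0.09, adjusted p = 0.0192), and it stayed called in 13 of 15 fits without 1 mouse. Without E4/Abca1+/+ replicate 4 the postsynaptic median was -0.06. The NMDA receptor subunit genes Grin2a and Grin2b both had -0.57 (SE 0.17 each, adjusted p = 0.0911 and 0.0968), and Grin1 had -0.24 (adjusted p = 0.109). The postsynaptic median was -0.02 in injured APOE3 and -0.01 in sham APOE4 mice. General excitatory neuron markers had a median of -0.11 and inhibitory ones of -0.01. Egr3, an activity-dependent transcription factor, was 31.9, 34.8 and 42.6 against 41.6, 44.1 and 51.2 CPM (-0.37, SE 0.07, adjusted p = 0.0138). It was the one call among 20 immediate early genes, of which 8 were positive and 12 negative, among them Fosb (-0.38, adjusted p = 0.144) and Atf3, a stress-induced factor (1.02, SE 0.39, adjusted p = 0.176).

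The genes that respond to injury were set apart by mice outside the comparison. In APOE3 mice injury raised 516 genes by more than 1 on the log2 scale, and 509 of them were tested in the injured APOE4 mice. There, 498 (97.8%) had positive log2 fold changes with Abca1 haploinsufficiency, 205 (40.3%) were higher at an unadjusted p under 0.05 against 8.6% of all genes, and 4 (0.786%) were called, among them Aif1 and Aim2, against 0.559% of all genes. DESeq2 called 35 of the 509 (6.88%) against 1.78% of all genes. The median was 0.55. The list shares members such as Aif1 and Aim2 with the immune lists, so its counts and theirs are not separate evidence.

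Mice differed in the level of this injury list within each group. With 1 Abca1 copy the mean log2(CPM + 1) was 2.62, 3.17 and 3.67 (lowest, median and highest), and with both copies it was 2.25, 2.44 and 3.53. In males the 4 E4/Abca1+/- mice, at 2.82 to 3.43, lay above the 4 E4/Abca1+/+ mice, at 2.25 to 2.54. In females 2.62 to 3.67 overlapped 2.35 to 3.53. Every male E4/Abca1+/- library was also deeper than every male E4/Abca1+/+ library. The list median was 0.83 in males, with 163 of 503 called higher against 2.34% of all genes, and 0.22 in females. It was 0.75 without E4/Abca1+/+ replicate 6, with 125 of 512 called higher against 2.76% of all genes, and 0.52 without E4/Abca1+/- replicate 8. It was -0.08 in injured APOE3 mice and 0.16 in sham APOE4 mice. The 23 genes lowered by injury had a median of -0.17 over the 17 tested, with Egr3 called, and one of -0.05 without E4/Abca1+/+ replicate 4.

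**Figure D5:**
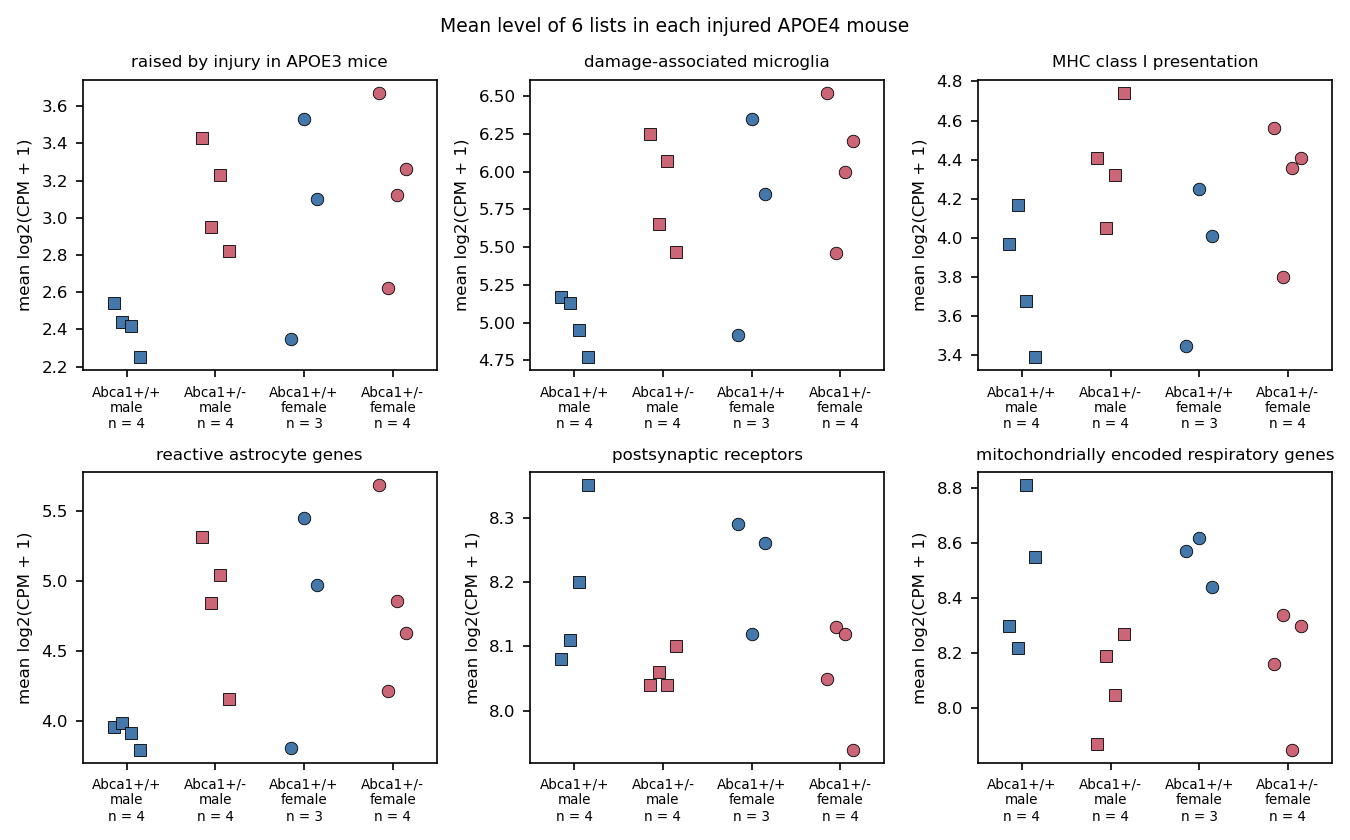
Mean log2(CPM + 1) of 6 lists in each injured APOE4 mouse, by genotype and sex, squares for males and circles for females; the vertical axes do not start at 0. In males the E4/Abca1+/- points lie above all E4/Abca1+/+ points for the injury list (2.82 to 3.43 against 2.25 to 2.54) and the damage-associated list, while in females they overlap. The male E4/Abca1+/- libraries were all deeper than the male E4/Abca1+/+ libraries.

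Whether the effect of Abca1 in injured mice depended on the APOE isoform was tested as an interaction over the 4 injured groups. Of 15138 genes 1 passed (0.00661%, smallest adjusted p = 0.0285), with 1536 at an unadjusted p under 0.05. Among the genes that did not pass, those of small p included Zbtb7a, a zinc finger repressor (-0.44, adjusted p = 0.13), Birc3, an inhibitor of apoptosis (1.21, adjusted p = 0.209), and H2-M3 (1.01, adjusted p = 0.209). DESeq2's Wald test of the interaction called 67 genes.

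Whether it depended on injury was tested over the 4 APOE4 groups. Of 15124 genes edgeR called 0 (0.0%), DESeq2 called 0, and 733 had an unadjusted p under 0.05, of which 465 had a positive and 268 a negative interaction term. The smallest adjusted p was 0.95, and the genes with the smallest p, such as Wasf3, a regulator of actin (-0.27), and the pseudogene Gm9794 (0.27), stood at that value. In these data the called differences of the injured APOE4 mice were thus not shown to differ from those of the sham mice.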

How the data were processed

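RNA-seq gene counts of the whole series were deposited by the authors as 1 table of raw read counts per gene and mouse. Per the labels and the study's methods, reads were aligned to mm10 with Subread 1.5.0 and counted with featureCounts, and no normalization was applied to the deposited counts. Groups came from the genotype, treatment and sex labels. Replicate numbers follow accession order and pair no mice. The labels give each mouse as a separate sample, and libraries of a group were never identical.

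The table held 15171 genes after 2 blank lines were removed, and 23 symbols turned into dates by a spreadsheet were restored from gene identifiers; 98.9% of identifiers matched RefSeq. Counts of the 15 mice were tested with edgeR 4.0.16 (R 4.3.3, limma 3.58.1): filterByExpr kept 14854 genes and removed 317, TMM factors were 0.9555 to 1.035, and the two-sided quasi-likelihood test was adjusted by Benjamini-Hochberg with a threshold of 0.05. CPM were scaled over all 58 mice. Interactions were fitted over the 4 groups each concerns. On simulated data for 8 against 7 mice, over 15171 genes, 92 of 100 genes changed by 1 on the log2 scale and 67 of 100 changed by 0.5 were called, with 9 false among 168 calls. DESeq2's Wald test on the same simulated data made 194 calls, of which 29 were false. The changed genes were drawn only from genes above a minimum mean count, and each gene was simulated on its own. Genes that move together by mouse were not simulated, so the shares found or false may differ in the 15 mice. Alternatives were DESeq2 1.42.0, edgeR's exact test, other filters and scaling, sex or depth as a covariate, thinning, single sexes, wider fits and leaving out each mouse; the injury score covariate and the sex interaction were added after the data were seen.

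Named genes were Abca1, Apoe, the 10 genes of smallest p in each direction, the 4 of smallest p in each list, the 4 nearest to Abca1 and the 3 of smallest p in each direction of each interaction; Hdhd3, H2-K1, H2-D1 and B2m were named after their values were seen. The 40 lists held 773 members, 724 of them in the table. Some genes that the rule takes are not reported here. Members and lists were chosen with earlier results of these data known. Promoters and coordinates are from RefSeq, GRCm38.p6. P-values measure the spread between these mice, and a floor of 3 counts covers counting error only.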

Additional observations from a re-analysis of the deposited data

Results flagged for a closer look

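Over 266 sets of values (93 genes and 40 lists in each of the 2 groups), 15 held a mouse far from the rest of its group by Dixon's criterion at 95%, where chance alone gives about 1 in 20 sets. E4/Abca1+/- replicate 8 accounted for 5 of them: the striatal genes Ppp1r1b (249.7 CPM against 38.6 to 59.7 in the other mice of its group) and Rgs9 (66.6 against 15.6 to 23.4), the dentate gyrus gene Prox1 (7.95 against 23.6 to 32.5), the hippocampal list (mean log2(CPM + 1) of 3.26 against 4.76 to 5.19) and the subcortical list (4.59 against 3.27 to 3.59). E4/Abca1+/- replicate 5 stood low in Alad (21.2 CPM against 52.3 to 60.5) and Hdhd3 (4.46 against 12.9 to 16.1). Replicate 6 of that group stood high in H2-Ab1 (41.1 against 5.19 to 19.6) and replicate 1 low in Rps24 (91.7 against 101.4 to 107.0).

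Among E4/Abca1+/+ mice, replicate 6 stood high in Apoc1 (9.80 CPM against 1.60 to 5.05) and Ttr (1596.7 against 0.144 to 589.1), replicate 1 low in Peg3 (170.5 against 196.1 to 209.7), replicate 3 high in the endothelial list (5.14 against 4.90 to 4.96) and the fibroblast and meningeal list (5.36 against 4.34 to 4.76), and replicate 2 high in the nuclear-encoded respiratory chain list (6.38 against 6.07 to 6.18).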

How the results depend on the processing

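The counts of 83 higher and 135 lower genes stayed within 1.5 times of themselves with DESeq2 size factors (83 and 138), no filter (83 and 128), a minimum of 1 CPM in 7 mice (86 and 120), sex (87 and 150) and log2 depth (69 and 120) as covariates. They were 265 and 464 by DESeq2's Wald test, 146 and 215 by edgeR's exact test, 269 and 280 in a fit over the 4 injured groups, 829 and 530 over all 8 groups (2222 higher at an unadjusted p under 0.05), 41 and 59 after thinning, 351 and 237 in males, 2 and 0 in females (546 and 617 at an unadjusted p under 0.05), and 29 and 12 with the injury score as a covariate. Leaving out 1 mouse gave 21 to 413 higher and 19 to 392 lower genes, and 994 to 1668 and 1135 to 1699 at an unadjusted p under 0.05; the isoform interaction gave 0 to 2, the injury interaction 0 in each, and the Wald test 67 for the isoform. Abca1 ran from -0.31 to 0.03 over the fits that left out 1 mouse, the 0.03 being without E4/Abca1+/+ replicate 6. It was 0.22 in males, -0.0 with log2 depth as a covariate and -0.69 with the injury score. Signs also turned for Ttr with the injury score (-0.26), Ppp1r1b by the Wald test (-0.08) and without E4/Abca1+/- replicate 8 (-0.08; up to 0.63 without other mice), and Rgs9 (-0.01) and Prox1 (0.15) in males. The causes were not tested.

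Of 38 followed genes that passed the test, 27 passed in every fit without 1 mouse that tested them (Bspry was tested in 11 of 15). No paired analysis was possible because the labels carry no replicate numbers that tie mice of different groups. Depth limits genes near the floor, such as Bspry, most in the shallow E4/Abca1+/+ libraries.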

Other observations

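Lists not described above held no gene called by edgeR in the injured APOE4 comparison. Oligodendrocyte markers had a median log2 fold change of 0.10 over 10 genes, with 8 positive, oligodendrocyte precursors one of 0.06 over 9, and the genes of myelin lipid and structure one of 0.06 over 14, none of them at an unadjusted p under 0.05. Cell cycle genes had a median of 0.18 over 18, with 15 positive and 1 at an unadjusted p under 0.05, and DESeq2 called 1. Genes of the ER stress response stood at 0.02 over 24, with 2 higher and 1 lower at that p. Heat and cold shock genes stood at -0.01 over 15, with 1 higher and 2 lower, of which DESeq2 called 1. Among all genes 8.6% were higher and 9.8% lower at an unadjusted p under 0.05.

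Leukocyte markers were few: 4 neutrophil markers were tested, with a median of 0.33 (-0.04 without E4/Abca1+/- replicate 3 and 0.77 without E4/Abca1+/+ replicate 6) and 0 at an unadjusted p under 0.05, 4 markers of T, NK and B cells, with a median of 0.71 and 1 at that p, and 2 of dendritic cells, with a median of 0.02. The summed level of the T, NK and B cell markers was 2.59 to 15.5 CPM in E4/Abca1+/- and 2.31 to 9.62 CPM in E4/Abca1+/+ TBI mice. Hippocampal markers had a median of -0.02 over 16 genes, and 0.14 without E4/Abca1+/- replicate 8. Subcortical markers had one of 0.19 over 13 genes by edgeR, -0.31 without E4/Abca1+/- replicate 8, and -0.29 by DESeq2.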
